A study of Mus musculus with 27 samples.

Results

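Intestinal stem cell and Wnt genes were followed in the ileal epithelium of mice given TCDD, a persistent dioxin that activates the aryl hydrocarbon receptor (AhR). The set held 10 genes chosen by name, *Lgr5*, *Olfm4*, *Ascl2*, *Smoc2*, *Axin2*, *Sox9*, *Rnf43*, *Znrf3*, *Cd44* and *Slc12a2*, of 46078 genes in the count tables. All 10 were present, and all 10 were among the 16741 genes that passed the filter on low counts. Male C57BL/6 mice were gavaged for 28 days, once every 4 days, and were sampled at postnatal day 56. There were 9 groups, each of 3 mice, which received sesame oil (vehicle) or TCDD in sesame oil at 8 doses. The low doses were 0.01 and 0.03 µg/kg, then 0.1 and 0.3 µg/kg, and the high doses were 1 and 3 µg/kg, then 10 and 30 µg/kg. Epithelium was scraped from the distal ileum, and 1 RNA-Seq library was made per mouse. Mice are called here by the numbers in their sample labels.

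The small intestinal epithelium is renewed from stem cells at the base of each crypt, whose daughters divide in the crypt and mature as they move onto the villus. Wnt ligands bind Frizzled and LRP receptors, stop the degradation of β-catenin and let it switch on target genes with TCF/LEF factors. R-spondins strengthen the signal through LGR receptors, which hold back 2 membrane ubiquitin ligases, RNF43 and ZNRF3, that remove Frizzled. *Axin2*, *Rnf43* and *Znrf3* are therefore both targets and brakes of the pathway, while *Lgr5*, *Olfm4*, *Ascl2* and *Smoc2* are used as markers of crypt base stem cells.

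Promoter sequences are shown because AhR binds a short core, GCGTG, in its response elements, and because *Axin2* and *Rnf43*, both Wnt targets, moved in opposite directions at the highest dose. RefSeq promoters (GRCm38.p6, 250 bases before to 50 after a start) were found for 5 of the 10 members, with 2 starts for *Rnf43* and so 6 promoters in all. The core, read on both strands, lay in 32.4% of all 32851 promoters. It occurred 3 times in the *Ascl2* promoter, and once each in the promoters of *Olfm4* and of the upstream *Rnf43* start. It was not found in the windows of *Axin2*, *Cd44* or the downstream *Rnf43* start. Capitals mark the core, which reads CACGC where it lies on the opposite strand, and every sequence is written 5′ to 3′ on the strand of its gene.
Rnf43, chr11:87663004-87663033, + strand, core 71 bases before the upstream start: tttgcctgatctGCGTGgattactttttcg
Olfm4, chr14:80000225-80000254, + strand, core 65 bases before the start: cctctttcttcaCACGCtggccatggggaa
Ascl2, chr7:142969478-142969507, - strand, the first of its cores, 231 bases before the start: tgctcctgcaatGCGTGgacaccgggtcct
Axin2, chr11:108920229-108920348, + strand, the 120 bases before its start, without the core: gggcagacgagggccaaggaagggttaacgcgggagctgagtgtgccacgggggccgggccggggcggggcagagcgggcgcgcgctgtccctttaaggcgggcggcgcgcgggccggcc
The TCF/LEF letters CTTTGA (16.0% of all promoters) and CTTTGT (18.7%) were found in none of the 6 windows on either strand. The *Olfm4* window (80000052 to 80000351) and both *Rnf43* windows lie inside the gene positions given below. Their RefSeq starts are thus not the outermost annotated starts, and other transcripts may hold these bases. These matches are descriptions of letters in a window, and binding was not measured.

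Gene counts summed to between 12.26 and 17.14 M per library, and in no pair of mice of the same dose did the counts agree within sampling noise. *Cyp1a1*, the classical AhR target, had 0 to 3 counts per vehicle mouse and 14821 to 27996 counts per mouse at 30 µg/kg. The library indexes were used once for the vehicle to 0.3 µg/kg mice and mouse 41 of the 1 µg/kg group (16 mice) and a second time for the other 11 mice. Only the 1 µg/kg group holds both uses, so elsewhere dose and this second use of the indexes cannot be told apart, whereas the 3, 10 and 30 µg/kg mice share the second use. Clock genes also moved with dose. A score over 11 clock genes (the mean of their standardised log2 values, activators with the sign turned) lay from -0.99 to -0.82 in the vehicle group and at 0.63 in mouse 14 at 0.01 µg/kg. At 3 µg/kg it ranged from 0.69 to 1.06, and at 30 µg/kg the range was 1.15 to 1.23. The score thus nearly followed dose. A fit with it as a covariate can hardly separate score from dose, so a call lost there does not tell them apart. Mouse 65 stood apart at 30 µg/kg, with summed enterocyte markers at 19925 CPM (counts scaled to an equal library size) against 43761 and 37960 in mice 67 and 68. Its 5 smooth muscle markers summed to 322 CPM, against 74.3 and 34.9. The ileal bile acid binding protein gene *Fabp6* stood at 1490 to 1810 CPM in the vehicle group.

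Vehicle levels were compared per kilobase of exon (RPKM, CPM divided by exon length). *Olfm4* (32.7) and *Axin2* (31.8) were the most abundant, followed by *Slc12a2* (19.1), *Rnf43* (7.32), *Sox9* (7.13), *Cd44* (3.85), *Smoc2* (2.62), *Znrf3* (2.29), *Lgr5* (1.39) and *Ascl2* (0.624), all as means of 3 mice. The ranges over vehicle mice overlapped for *Olfm4* (26.9 to 40.1) and *Axin2* (31.3 to 32.3), and for *Rnf43* (7.13 to 7.64) and *Sox9* (5.11 to 8.21). They also overlapped for *Smoc2* (2.15 to 3.47) and *Znrf3* (2.17 to 2.4). The receptor *Lgr5* was thus a low-abundance transcript, at 147 to 271 counts per vehicle mouse, and *Ascl2* reached only 10 to 17 counts.

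**Figure D1:**
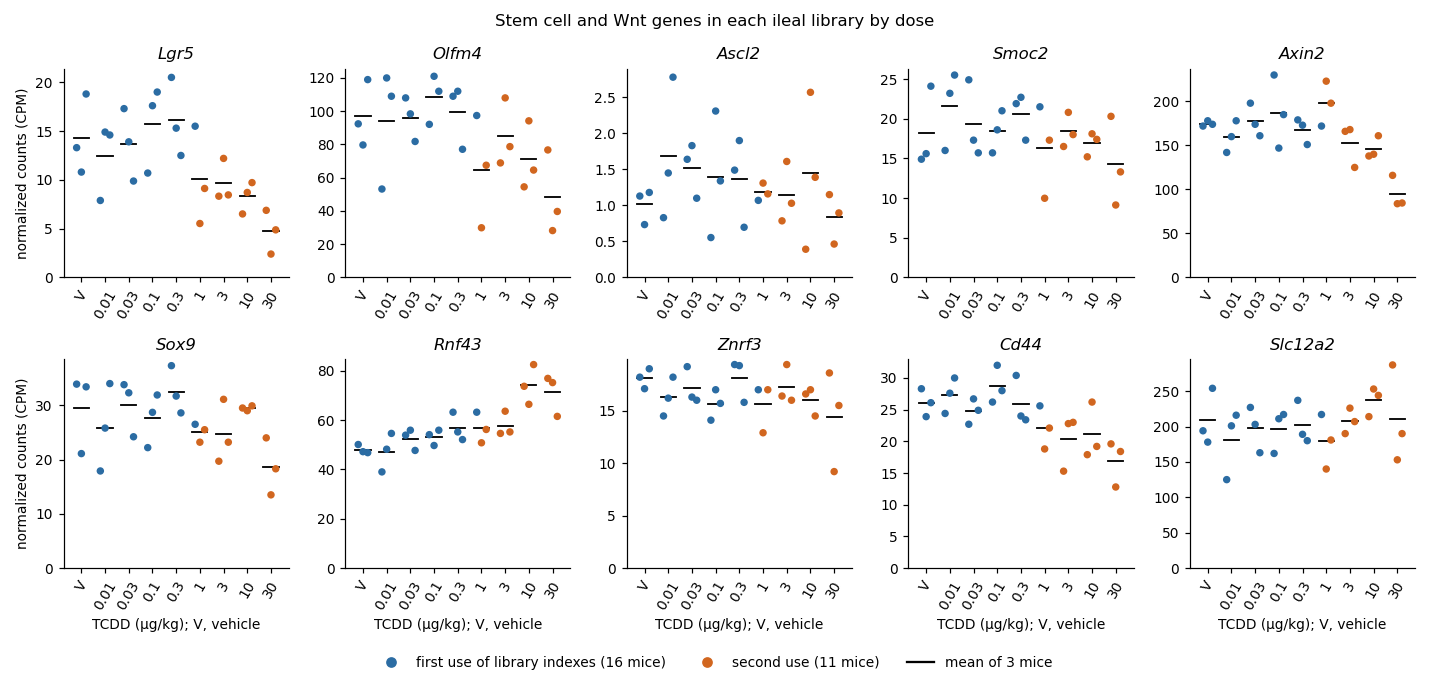
CPM of each of the 10 genes (y axis, from 0) in each mouse against the TCDD dose (x axis, V for vehicle), with points coloured by index use and a bar at the mean of 3 mice. *Lgr5* lies at 10.8 to 18.8 CPM in the vehicle group and 2.4 to 6.88 at 30 µg/kg, *Axin2* stays near its vehicle level until 1 µg/kg, *Rnf43* is highest at 10 and 30 µg/kg, and *Slc12a2* has no lower level at 30 µg/kg.

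No member was called at 0.01, 0.03, 0.1 or 0.3 µg/kg, where 0% of all genes were called against vehicle (edgeR's quasi-likelihood test, Benjamini-Hochberg adjusted p of at most 0.05 over all genes tested and a fold change of at least 1.5). No member was called at 1 µg/kg (background 0.591%) or at 3 µg/kg (1.11%). DESeq2 also called 0 members at each of these 6 doses. At an unadjusted p under 0.05, 1 member passed at 0.3 µg/kg (*Rnf43*), 2 at 3 µg/kg (*Cd44* and *Rnf43*) and 0 at the other 4 doses. The share of all genes past that unadjusted limit was not computed, so these counts have no background to be read against. At 10 µg/kg 1 of 10 was called, *Rnf43*, against 2.53% of all genes. At 30 µg/kg 4 of 10 were called, *Lgr5*, *Axin2*, *Sox9* and *Cd44*, against 9.4% of all genes. All 4 fell, where 3.98% of all genes were called lower, and 0 of 10 were called higher, where 5.42% of all genes were. On the adjusted p alone, *Rnf43* joined them as a gene that rose (17.8% of all genes). The median log2 fold change at 30 µg/kg was -0.49 over the 10 members and 0.02 over all genes tested. Scaling to library size only shifted the median of all genes to -0.11 and turned the share of higher calls from 57.7% to 36.6%, and scaling to pan-epithelial genes gave -0.11 and 40.6%. These 8 dose comparisons share the same 3 vehicle mice.

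*Lgr5* (ENSMUSG00000020140, chromosome 10, 115450311 to 115587780, - strand, GRCm38) encodes the R-spondin receptor that defines cycling crypt base stem cells. Vehicle mice 2, 3 and 4 had 13.3, 10.8 and 18.8 CPM, and mice 65, 67 and 68 at 30 µg/kg had 6.88, 2.4 and 4.88 CPM. All 3 treated mice thus lay below all vehicle mice, with the lowest value in mouse 67. The mean fell from 14.3 ± 4.08 to 4.72 ± 2.24 CPM (SD, n = 3), a 3.01-fold decrease (log2 fold change -1.59, standard error 0.37, adjusted p = 0.00473 with edgeR). The exact permutation p was 0.1, the smallest that 3 mice against 3 allow. In scraped epithelium, fewer stem cells and less *Lgr5* RNA per cell cannot be told apart.

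The 15 mice from vehicle to 0.3 µg/kg ranged from 7.89 to 20.5 CPM of *Lgr5*, with a median of 14.6. At 1 µg/kg mouse 41 had 15.5 CPM, and mice 43 and 44, of the second index use, had 5.53 and 9.12 CPM. At 3 µg/kg the values were 8.33, 12.2 and 8.46 CPM, and at 10 µg/kg 6.51, 8.71 and 9.72 CPM. In the only group that held both index uses, both second-use mice thus lay below first-use mouse 41. Mouse 43 lay below the range of the 15 mice, and mouse 44 lay inside it. Mouse 43 also had the lowest Paneth (1629 CPM), proliferation (344) and fibroblast (48.8) marker sums of its group. The log2 fold changes of *Lgr5* were -0.56 at 3 µg/kg (adjusted p = 0.502) and -0.78 at 10 µg/kg (adjusted p = 0.248), neither called. With index use as a covariate, the *Lgr5* difference at 30 µg/kg was -0.52 (adjusted p = 0.71), an estimate that links the 2 uses through the 3 mice at 1 µg/kg alone. Between 30 and 3 µg/kg, within the second use, it was -1.03 (95% interval -1.8 to -0.25, adjusted p = 0.201), with all 3 mice at 30 below all 3 at 3 µg/kg. Without mouse 65 that comparison was called for *Lgr5* (-1.44, adjusted p = 0.0427) and for *Olfm4* (-1.36, adjusted p = 0.0276). Without mouse 67 the differences were smaller, at -0.71 for *Lgr5* (adjusted p = 0.618) and -0.55 for *Olfm4* (adjusted p = 0.721).

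*Olfm4* (ENSMUSG00000022026, chromosome 14, 79984081 to 80023139, + strand) encodes a secreted glycoprotein that marks the same cells in the small intestine. Vehicle mice had 92.4, 79.7 and 119 CPM, and mice 65, 67 and 68 had 76.7, 28.2 and 39.7 CPM. The groups did not overlap, but mouse 65 lay just under the lowest vehicle mouse. The log2 fold change of -1.01 had a standard error of 0.36 and a 95% interval from -1.74 to -0.27, and its adjusted p of 0.052 missed the threshold. Without mouse 65 it was -1.55 (adjusted p = 0.00364), without mouse 67 it was -0.73 (adjusted p = 0.248), and with index use as a covariate it was -0.01. *Olfm4* was called with DESeq2 (adjusted p = 0.0407), under library size scaling (0.0481) and with no filter on low counts (0.00792). At 1 µg/kg mouse 41 had 97.4 CPM and mice 43 and 44 had 29.9 and 67.5 CPM. As for *Lgr5*, mouse 43 lay below the range at vehicle to 0.3 µg/kg (53.2 to 121 CPM) and mouse 44 inside it.

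*Smoc2* (ENSMUSG00000023886, chromosome 17, 14279506 to 14404790, + strand), which encodes a matricellular protein of crypt base cells, had 14.9, 15.6 and 24.1 CPM in the vehicle group and 20.3, 9.13 and 13.3 CPM at 30 µg/kg. The groups overlapped through mouse 65 (log2 fold change -0.35, standard error 0.27, adjusted p = 0.393). *Ascl2* (ENSMUSG00000009248, chromosome 7, 142966829 to 142969264, - strand), a transcription factor that maintains stem cell identity, had 1.13, 0.734 and 1.18 CPM in the vehicle group and 1.15, 0.464 and 0.896 at 30 µg/kg. With 5 to 41 counts over all 27 mice, the interval of its log2 fold change (-0.27) ran from -1.48 to 0.94, so neither a 2-fold decrease nor an increase of nearly that size could be told from no difference at this depth. Of the 4 stem cell markers, *Lgr5* was called at 30 µg/kg with edgeR, and both *Lgr5* and *Olfm4* with DESeq2.

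*Axin2* (ENSMUSG00000000142, chromosome 11, 108920349 to 108950783, + strand) encodes a scaffold of the complex that degrades β-catenin and is a widely used readout of Wnt activity. Its level was nearly equal in the 3 vehicle mice, at 172, 178 and 174 CPM, and was 116, 83.8 and 84.6 CPM in mice 65, 67 and 68. The mean fell from 175 ± 2.87 to 94.8 ± 18.5 CPM (SD, n = 3), a 1.84-fold decrease (log2 fold change -0.88, standard error 0.15, adjusted p = 0.000349 with edgeR). All 3 treated mice lay below all 3 vehicle mice. The course over dose was unlike that of *Lgr5*. At 1 µg/kg *Axin2* stood at 172, 223 and 198 CPM, with the first-use mouse the lowest, and at 10 µg/kg at 138, 140 and 161 CPM. The means were 153 ± 24.4 CPM at 3 µg/kg, 146 ± 12.7 at 10 µg/kg and 94.8 ± 18.5 at 30 µg/kg (SD, n = 3).

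Within the second index use, *Axin2* was lower at 30 than at 3 µg/kg (166, 168 and 125 CPM), by -0.69 on the log2 scale (standard error 0.15, adjusted p = 0.0217 with edgeR). It was the 1 member of 10 called in that comparison, where 0.89% of all genes were called. The call at 30 against 3 µg/kg was lost without any 1 of mice 50, 51, 67 or 68, with adjusted p from 0.106 to 0.157 and log2 differences from -0.61 to -0.64. Against vehicle, *Axin2* was called at 30 µg/kg without any single mouse (log2 fold change from -1.08 to -0.80) and with index use as a covariate (-1.18, adjusted p = 0.0197). The covariate estimate links the 2 uses through the 3 mice at 1 µg/kg alone. There, first-use mouse 41 had 172 CPM of *Axin2* and mice 43 and 44 had 223 and 198 CPM. An uncharacterised gene that overlaps *Axin2* by 209 bases on the opposite strand had 0 to 7 counts per mouse.

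*Rnf43* (ENSMUSG00000034177, chromosome 11, 87662722 to 87735539, + strand), which encodes 1 of the ubiquitin ligases that remove Frizzled receptors, moved the other way. Vehicle mice had 50.1, 47.2 and 46.8 CPM. At 10 µg/kg the values were 73.7, 66.4 and 82.5 CPM, and at 30 µg/kg they were 76.9, 75.2 and 61.5 CPM. All 6 of these mice lay above all vehicle mice, and 5 of them above the highest of the 15 mice at vehicle to 0.3 µg/kg (63.2 CPM). *Rnf43* rose 1.54-fold at 10 µg/kg (log2 fold change 0.63, standard error 0.12, adjusted p = 0.0028 with edgeR). That call was lost with index use as a covariate (0.87, adjusted p = 0.0662), with the clock score (0.27, 0.913), under pan-epithelial scaling (0.51, 0.108) and, through the fold limit, under library size scaling (0.58, 0.0185). At 30 µg/kg the difference was 0.57 on the log2 scale (standard error 0.12, adjusted p = 0.0018), and the 1.48-fold increase stayed under the fold limit of 1.5. With index use as a covariate it was 0.81 (adjusted p = 0.0305), and under pan-epithelial scaling 0.46 (adjusted p = 0.0774). The covariate estimates rest on the 3 mice at 1 µg/kg, with 63.2 CPM in first-use mouse 41 and 50.8 and 56.2 CPM in mice 43 and 44. Between 30 and 3 µg/kg (54.6, 63.6 and 55.2 CPM) the *Rnf43* difference was 0.30 (95% interval 0.06 to 0.54, adjusted p = 0.233), not called.

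*Znrf3* (ENSMUSG00000041961, chromosome 11, 5276324 to 5444847, - strand) encodes the paralog of RNF43. It stood at 18.2, 17.1 and 19 CPM in the vehicle group and at 18.6, 9.2 and 15.5 CPM at 30 µg/kg, with mouse 65 inside the vehicle range (log2 fold change -0.33, standard error 0.17, adjusted p = 0.197). Without mouse 65 the difference was -0.58 (adjusted p = 0.0151) and was called, and without mouse 67 it was -0.09 (adjusted p = 0.77). The 2 ligase genes thus had estimates of opposite sign at 30 µg/kg, with intervals of 0.33 to 0.81 for *Rnf43* and -0.68 to 0.03 for *Znrf3*.

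*Sox9* (ENSMUSG00000000567, chromosome 11, 112782224 to 112787760, + strand), a transcription factor of crypt progenitors and Paneth cells, had 33.9, 21.1 and 33.4 CPM in the vehicle group and 24, 13.5 and 18.3 CPM at 30 µg/kg. Mouse 65 exceeded vehicle mouse 3, so the groups overlapped. With edgeR the difference was -0.66 on the log2 scale, with a standard error of 0.22 (adjusted p = 0.0432). *Sox9* at 10 µg/kg stood at 29.5, 29 and 29.9 CPM, the vehicle mean being 29.5. Its call was lost without any 1 of mice 2, 4, 67 or 68, with adjusted p from 0.107 to 0.231. The *Sox9* call was also lost under pan-epithelial scaling (-0.75, adjusted p = 0.0776). *Cd44* (ENSMUSG00000005087, chromosome 2, 102811141 to 102901665, - strand), a Wnt-regulated adhesion receptor of crypt cells, had 28.3, 23.9 and 26.1 CPM in the vehicle group and 19.6, 12.8 and 18.4 CPM at 30 µg/kg, without overlap. It fell 1.54-fold (log2 fold change -0.62, standard error 0.17, adjusted p = 0.015 with edgeR). Without mouse 67 the adjusted p was 0.119, and without vehicle mouse 2 it was 0.0564. With index use as a covariate the differences were -0.54 for *Sox9* and -0.30 for *Cd44*, neither called.

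*Slc12a2* (ENSMUSG00000024597), which encodes a sodium, potassium and chloride cotransporter of crypt cells, had nearly the same mean in both groups, 209 ± 40.3 CPM in the vehicle group and 210 ± 69.4 CPM at 30 µg/kg (SD, n = 3). Vehicle mice had 194, 178 and 254 CPM and mice 65, 67 and 68 had 287, 153 and 190 CPM. The treated mice included both the highest and the lowest of the 6 values. The log2 fold change was 0.01 with a 95% interval from -0.43 to 0.45 (adjusted p = 0.983), which leaves out a decrease of the size estimated for *Lgr5* or *Axin2*. Its sign turned under library size scaling (-0.09) and under pan-epithelial scaling (-0.06).

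**Figure D2:**
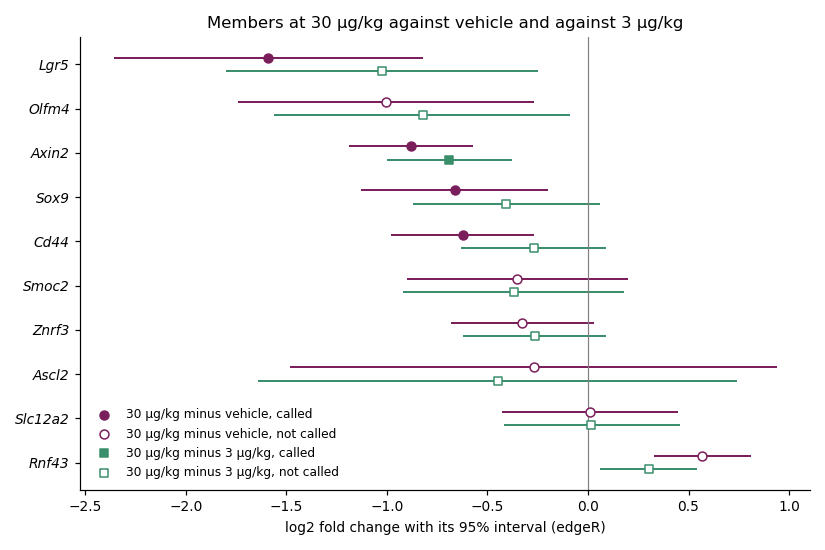
Log2 fold change of each gene (x axis, edgeR) with its 95% interval, at 30 µg/kg against vehicle (circles) and against 3 µg/kg (squares), where filled symbols passed the adjusted p and fold limits. *Lgr5*, *Axin2*, *Sox9* and *Cd44* are filled against vehicle and *Axin2* against 3 µg/kg, and *Rnf43* is the gene with both intervals above 0.

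Over all 9 groups, a linear term in the rank of the dose (0 for vehicle to 8 for 30 µg/kg) was tested with edgeR at an adjusted p of at most 0.05. It called 5 of the 10 members, where 26.2% of all genes were called. The 4 that fell (12.8% of all genes) were *Lgr5* at -0.15 log2 per dose step (adjusted p = 0.0039), *Olfm4* at -0.10 (0.0256), *Cd44* at -0.08 (0.00116) and *Axin2* at -0.07 (0.0203). *Rnf43* rose by 0.08 per step (adjusted p = 5.38e-06), where 13.4% of all genes were called rising. Any difference among the 9 groups was called for *Axin2* (adjusted p = 0.00212), *Rnf43* (0.00233) and *Lgr5* (0.0323), 3 of 10 against 9.53% of all genes. Within the 16 mice of the first index use, 0 of 10 members had a called trend, where 25 of 17353 genes did. The *Lgr5* slope there was 0.06. Within the 11 mice of the second use 1 was called, *Axin2*, where 237 of 16419 genes were. The slopes of *Lgr5* (-0.25, adjusted p = 0.473) and *Rnf43* (0.16, adjusted p = 0.112) were not called there. With the clock score as a covariate, 0 of 10 members were called at 30 µg/kg and 14 of all 16741 genes were. The estimates were -2.35 for *Lgr5* (adjusted p = 0.263), -0.91 for *Axin2* (0.313) and 0.18 for *Rnf43* (0.783). Vehicle and 30 µg/kg mice did not overlap in this score, so the lost calls cannot separate it from dose. At 30 against 3 µg/kg with that covariate, *Axin2* was again the 1 member called, where 122 of all 16741 genes were called.

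Ratios of counts within a library do not depend on the scaling between libraries. They were formed after the values had been seen and are given without a test. *Rnf43* had 0.291, 0.265 and 0.268 times as many counts as *Axin2* in the vehicle group, 0.534, 0.473 and 0.512 at 10 µg/kg and 0.662, 0.898 and 0.728 at 30 µg/kg. The highest ratio in the 15 mice at vehicle to 0.3 µg/kg was 0.354, so all 6 mice at 10 and 30 µg/kg lay above them. At 1 µg/kg first-use mouse 41 had 0.368, above second-use mice 43 and 44 with 0.228 and 0.283. *Rnf43* to *Znrf3* was 2.47 to 2.76 in the vehicle group, 3.92 to 5.69 at 10 µg/kg and, at 30 µg/kg, 3.98 to 8.17.

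*Slc12a2* to *Lgr5* varied little among mice at low doses. It lay between 11.4 and 16.5 in all 16 mice of the first index use, from vehicle to mouse 41 of the 1 µg/kg group (14). It lay between 18.6 and 63.7 in all 11 mice of the second use. At 1 µg/kg mice 43 and 44 had 25.3 and 19.8, so that this ratio separated the 2 index uses at the same dose. Among second-use mice it was 22.8, 18.6 and 24.4 at 3 µg/kg, 32.9, 29 and 25.1 at 10 µg/kg and 41.7, 63.7 and 38.9 at 30 µg/kg, without overlap between neighbouring doses from 3 µg/kg up. The lower *Lgr5* of the second-use mice was thus not matched by *Slc12a2*.

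**Figure D3:**
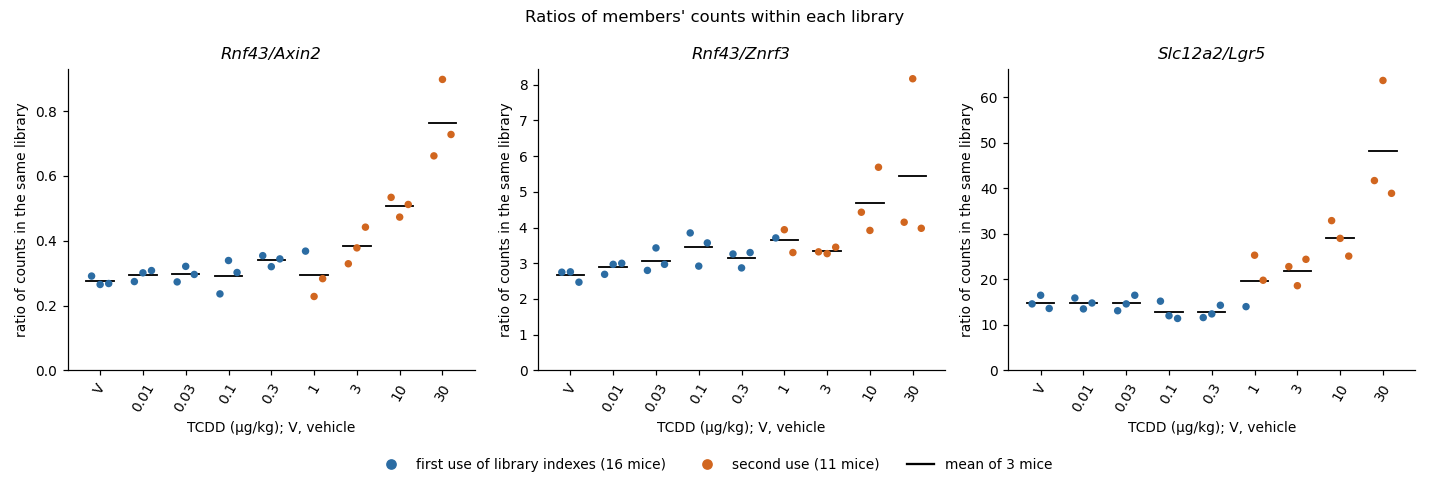
Ratios of read counts within each library (y axes, from 0) against TCDD dose (x axis, V for vehicle), points coloured by index use and bars at the mean of 3 mice. *Rnf43* to *Axin2* reaches 0.662 to 0.898 at 30 µg/kg, and *Slc12a2* to *Lgr5* lies at 11.4 to 16.5 in first-use mice and at 18.6 or above in second-use mice.

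Within a dose, most of these genes tended to be lowest in the same mouse. The mouse with the lowest *Lgr5* of its group was also the lowest for *Olfm4* and *Slc12a2* in 9 of 9 groups. For *Ascl2*, *Smoc2*, *Sox9* and *Cd44* this held in 8 groups, for *Znrf3* in 7 and for *Axin2* and *Rnf43* in 5. The median over all genes tested was 3 groups, and 1.21% of genes reached at least 8. The mouse with the highest *Lgr5* matched less often. It was also the highest in 7 groups for *Slc12a2* and *Sox9*, and in 6 for *Olfm4*, *Smoc2*, *Rnf43* and *Znrf3*. For *Axin2* this held in 5 groups and for *Ascl2* and *Cd44* in 3, the median over all genes being 3. These counts compare libraries that share their depth and their scraping, and the amount of crypt in each scraping was not measured. The mouse lowest in *Lgr5* was thus lowest in *Slc12a2* at every dose, although *Slc12a2* was not called at 30 µg/kg.

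Over the 27 mice, the genes most like *Lgr5* in log2 CPM were *Clca3b* (r = 0.936), *Olfm4* (0.912), *AY761184* (0.91), *Rgmb* (0.899) and *Clic6* (0.898). At 30 µg/kg against vehicle *AY761184* was called lower (log2 fold change -1.57, adjusted p = 0.00242 with edgeR). So were *Clic6* (-1.04, 0.000237) and *Clca3b* (-0.8, 0.0167), while *Olfm4* and *Rgmb* were not called. *Clca3b* belongs to a family of chloride channel regulators, *Rgmb* encodes a BMP co-receptor and *Clic6* an intracellular chloride channel. Within the first and second index use, r with *Lgr5* was 0.871 and 0.865 for *Olfm4*, 0.833 and 0.842 for *Sox9*, 0.94 and 0.568 for *Slc12a2* and 0.195 and 0.632 for *Axin2*. The genes most like *Axin2* were *Efnb2* (0.866), which encodes an ephrin, *Tspan7* (0.857), *Itgam* (0.855), *Ybx1* (0.854) and *Flrt3* (0.826). Their r with *Axin2* was 0.419 to 0.563 in the first index use and 0.879 to 0.944 in the second. *Lgr5* ranked 245 among them at r = 0.634. These are descriptions over mice that share doses and index uses.

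**Figure D4:**
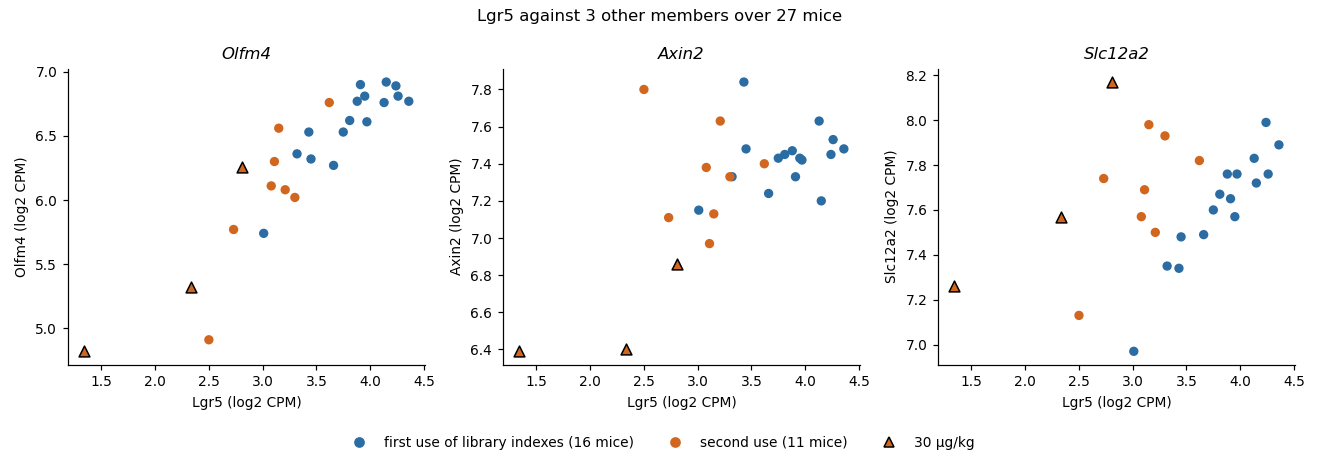
Log2 CPM of *Olfm4*, *Axin2* and *Slc12a2* (y axes) against that of *Lgr5* (x axis) in 27 mice, coloured by index use, with triangles for 30 µg/kg. *Olfm4* follows *Lgr5* over all mice (r = 0.912), *Axin2* does so less (0.634), and *Slc12a2* (0.423) follows it along separate lines in the 2 index uses.

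The rest of the Wnt pathway was taken from lists compiled with earlier results of these data known, and its calls at 30 µg/kg are set against the 9.4% of all genes. Of the 12 cytoplasmic genes, which include β-catenin and parts of its degradation complex, 0 were called, with log2 fold changes from -0.15 to 0.36. Among them *Gsk3b* (0.36, adjusted p = 0.00803 with edgeR) passed the adjusted p but not the fold limit. Of 6 secreted inhibitors tested, of 14 listed, 0 were called. Of 7 Wnt ligands tested, of 19 listed, 2 rose and 1 fell. *Wnt4* rose from 2.13 ± 0.389 to 3.66 ± 0.379 CPM (log2 fold change 0.78, adjusted p = 0.0329 with edgeR). *Wnt9a* rose from 0.536 ± 0.413 to 1.41 ± 0.246 CPM (1.37, adjusted p = 0.0329), and *Wnt11* fell from 1.55 ± 0.532 to 0.494 ± 0.225 CPM (-1.65, adjusted p = 0.0203). All 3 were low-abundance transcripts, and none was called at 30 against 3 µg/kg.

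Of 13 R-spondin and receptor genes tested, of 18 listed, 1 was called. The receptor gene *Fzd3* fell from 2.59 ± 0.81 to 0.425 ± 0.203 CPM (SD, n = 3; log2 fold change -2.56, standard error 0.48, adjusted p = 0.000794 with edgeR). The LGR5 relative *Lgr4*, singled out after its values were seen, passed the adjusted p but not the fold limit (log2 fold change -0.47, adjusted p = 0.00223). The same held for *Fzd7* (-0.54, 0.0247) and, among the other Wnt targets, for *Cdx1* (-0.42, 0.00552). Of 8 nuclear genes 1 rose, the β-catenin cofactor *Bcl9l*, from 30.9 ± 5.33 to 46.9 ± 2.48 CPM (0.60, adjusted p = 0.000469). Of 10 other Wnt targets *Prox1* rose (0.64, adjusted p = 0.0106) and the cyclin gene *Ccnd1* fell, from 171 ± 24 to 75.6 ± 43 CPM (-1.17, adjusted p = 0.00225). Over these 6 Wnt lists 4 genes were called higher and 3 lower, which became 1 and 5 under library size scaling and 0 and 5 under pan-epithelial scaling. With index use as a covariate 2 were called higher (*Bcl9l* and *Wnt4*) and 0 lower, and with the clock score 0 and 0. Leaving out 1 mouse gave 2 to 3 higher, with 2 without mouse 2, 3, 67 or 68, and 2 to 4 lower. Of 7 Notch genes 1 was called, the ligand *Dll4*, which fell (-0.60, adjusted p = 0.0184).

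Of 11 further stem cell genes tested, of 12 listed, 2 fell at 30 µg/kg. *Prom1*, which encodes a membrane glycoprotein of progenitors, fell from 111 ± 20.7 to 63.9 ± 20 CPM (log2 fold change -0.79, adjusted p = 0.00372 with edgeR) and the water channel gene *Aqp4* from 21.7 ± 8.87 to 12.2 ± 3.52 CPM (-0.83, adjusted p = 0.04). The median of the list was -0.36, and the count was 5 without mouse 65, 1 without mouse 67 and 1 without vehicle mouse 4. It was 0 with index use as a covariate, 0 with the clock score and 0 in a fit of only the 6 mice. The remaining gene, *Gkn3*, had 0 counts in all vehicle mice and in all mice from 0.3 to 30 µg/kg.

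Genes of dividing cells were also lower at the highest dose. Of 12 proliferation genes 8 fell at 30 µg/kg, where 3.98% of all genes were called lower, and 0 rose, with a list median of -0.64. The largest differences were in *Ccnb1* (log2 fold change -1.07, adjusted p = 0.00641 with edgeR), *Ccna2* (-0.94, 0.00641), *Cdk1* (-0.80, 0.0239) and *Mcm2* (-0.71, 0.0402), which encode mitotic cyclins, their kinase and a replication helicase subunit. Their summed level was 520 to 713 CPM in the vehicle group, and 574, 294 and 373 CPM in mice 65, 67 and 68. The summed level was 475 to 508 CPM at 3 µg/kg and 491 to 588 CPM at 10 µg/kg. In the trend over dose rank 11 of 12 were called falling, where 12.8% of all genes were, in a fit without covariates. The count of 8 at 30 µg/kg depended on single libraries and on settings. It was 0 without vehicle mouse 4, 4 without vehicle mouse 2, 1 without mouse 67, 2 without mouse 68, 3 under pan-epithelial scaling, 0 with index use as a covariate, 0 with the clock score and 0 in a fit of only the 6 mice. At 30 against 3 µg/kg 0 of 12 were called. The 7 listed Paneth cell genes, which mark the neighbours of the stem cells, had 0 calls and a median of -0.22. Their sum was 1656 to 4010 CPM in the vehicle group and 1850 to 3360 CPM at 30 µg/kg. The list did not hold *AY761184*, named above, which was called lower (-1.57, adjusted p = 0.00242 with edgeR). Vehicle mice 2, 3 and 4 had Paneth sums of 3108, 1656 and 4010 CPM, with *Lgr5* at 13.3, 10.8 and 18.8 CPM. Mice 65, 67 and 68 had Paneth sums of 3360, 1850 and 2698 CPM, with *Lgr5* at 6.88, 2.4 and 4.88 CPM. The part of crypt content in the *Lgr5* difference was not tested.

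Markers of mature cells included genes that rose. Of 7 enteroendocrine genes 4 rose (list median 0.88), led by *Chgb* (log2 fold change 1.19, adjusted p = 5.89e-05 with edgeR), *Chga* (1.10, 0.00236), *Pyy* (1.01, 0.0122) and *Neurod1* (0.88, 0.035), and 5.42% of all genes were called higher. The count of 4 was 2 without mouse 68, 2 without vehicle mouse 4, 1 with index use as a covariate (*Chgb*) and 0 with the clock score. Their sum was 114 to 132 CPM in the vehicle group and 212 to 248 CPM at 30 µg/kg. Among the 9 enterocyte genes *Sis* (1.40, adjusted p = 0.000341) and *Slc5a1* (1.22, 0.000406) rose, and *Fabp6* fell (-0.94, 0.012). Their sum was 20977 to 23719 CPM in the vehicle group and 19925 to 43761 CPM at 30 µg/kg. Of 7 goblet genes *Zg16* rose (0.65, adjusted p = 0.000738). *Tff3* (0.49, 0.000452), *Muc2* (0.46, 0.00379), *Fcgbp* (0.44, 0.00761) and *Clca1* (0.46, 0.0154) passed the adjusted p but not the fold limit. *Agr2* (0.10, 0.646) and *Spink4* (-0.50, 0.156) passed neither. The goblet sum was 21946 to 24695 CPM in the vehicle group and 30728 to 33627 CPM at 30 µg/kg. The 5 tuft cell genes were all called higher at 10 µg/kg and 0 of 5 at 30 µg/kg. The 6 fibroblast genes had 0 calls and a median of -0.57 (summed 80.6 to 178 CPM in the vehicle group, 48.9 to 106 CPM at 30 µg/kg), and the 5 smooth muscle genes 0 calls (23.5 to 102 and 34.9 to 322 CPM). Of the 6 T cell genes 0 were called, and of 5 B and plasma cell genes *Jchain* fell (-1.61, adjusted p = 0.00195). The 3 endothelial genes had 0 calls. The part of these cell type markers in the members' differences was not tested.

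**Figure D5:**
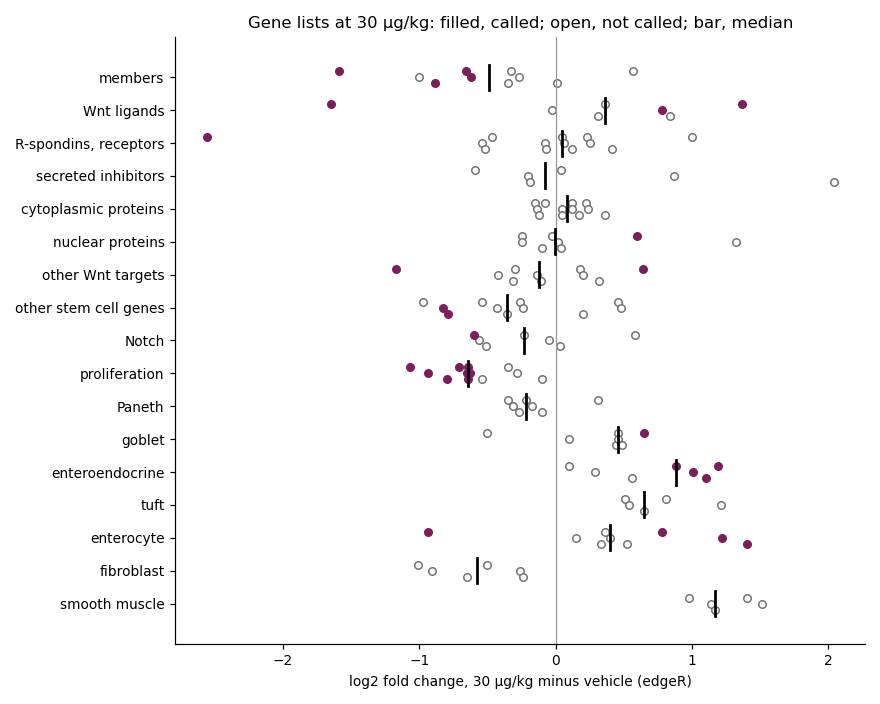
Log2 fold change at 30 µg/kg against vehicle (x axis, edgeR) of every tested gene in each list (rows), filled where called, with a bar at the list median. The members (median -0.49) and the proliferation genes (-0.64) lie to the left of 0, the enteroendocrine genes (0.88) to the right and the cytoplasmic Wnt genes (0.08) close to 0.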

How the data were processed

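Total RNA from ileal epithelial scrapings of 27 mice was sequenced, 1 library per mouse, and groups were taken from the treatment labels. Per the study's methods and the submitters' processing notes, reads were checked with FastQC 0.11.3, trimmed with Trimmomatic 0.33, aligned to GRCm38 with TopHat2 2.1.0 and counted per Ensembl gene with HTSeq 0.6.1 (SAMtools 1.2.0 and DESeq are also named). The deposited values are raw read counts per gene. Between 44.48% and 49.52% of reads fell in no gene and 0.61% to 1.02% were ambiguous, and both stayed out of library sizes.

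From these counts, edgeR 4.0.16 in R 4.3.3 was fitted to all 9 groups (TMM factors, filterByExpr with a minimum count of 10 and total of 15, quasi-likelihood test), with Benjamini-Hochberg adjustment over 16741 genes. A call needed an adjusted p of at most 0.05 and, in comparisons of 2 groups, a fold change of at least 1.5. CPM values use TMM-scaled library sizes, and log2 CPM a prior count of 2. Index use was read from the index sequences recorded with the libraries. Alternatives were DESeq2 1.42.0, other scalings and filters, index use or the clock score as a covariate, fewer mice and leaving out each mouse. The scripts were tested on simulated data.

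The 10 genes and the other lists were chosen with earlier results of these data known. Named were all 10 genes, up to 4 called genes per list with the largest change at 30 µg/kg, the 5 genes most correlated with *Lgr5* and with *Axin2*, and *Cyp1a1*, except 1 listed gene that is not reported here. The values of *Fabp6*, *Lgr4*, *Fzd7*, *Cdx1* and *Gsk3b*, the Paneth sums by mouse and the ratios were added after values were seen. Mice were co-housed and cages are not in the labels, so p-values measure the spread between these mice. Sequences are from RefSeq and gene positions from the GRCm38 annotation. Genes that overlap on the opposite strand cannot be told apart, since a strand setting is not given in the sources used here.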

Additional observations from a re-analysis of the deposited data

How the results depend on the processing

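Of the 10 genes, 1 was called at 10 µg/kg, 4 at 30 µg/kg, 1 at 30 against 3 µg/kg, 5 in the trend and 3 for any difference. At 10 µg/kg the count was 0 under library size scaling, pan-epithelial scaling, the index use covariate and the clock covariate. At 30 µg/kg it was 2 with index use (*Axin2* and *Rnf43*), 0 with the clock score and 2 in a fit of only the 6 mice (*Axin2* and *Lgr5*). It was 3 under pan-epithelial scaling (*Axin2*, *Cd44* and *Lgr5*), and 5 with DESeq2, library size scaling or no filter, each adding *Olfm4*. At 30 against 3 µg/kg it was 0 under pan-epithelial scaling and 0 with only the 6 mice. The trend count was 1 with index use (*Rnf43*), 0 with the clock score, 0 in first-use mice and 1 in second-use mice (*Axin2*). The count for any difference was 5 without a filter, 4 with DESeq2, 2 under pan-epithelial scaling, 1 with index use (*Axin2*) and 0 with the clock score. Leaving out 1 mouse gave 0 to 1 at 10 µg/kg (0 without mouse 59), 2 to 6 at 30 µg/kg (2 without mouse 67, 6 without mouse 65), 0 to 3 at 30 against 3 µg/kg (3 without mouse 65), 3 to 5 in the trend (3 without mouse 67 or 68) and 2 to 4 for any difference. The clock score nearly followed dose, so counts with that covariate cannot separate the clock from dose. The causes were not tested.

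Over all genes, 1574 were called at 30 µg/kg, against 482 with index use, 14 with the clock score, 667 with only the 6 mice and 878 (without mouse 67) to 2508 (without mouse 65) on leaving out 1 mouse. At 10 µg/kg 423 were called, against 48, 4 and 208 to 450 for index use, the clock score and leaving out 1 mouse. At 3 µg/kg 185 were called, against 6, 0 and 67 to 225, with 308 without a filter and 344 with only the 6 mice. At 1 µg/kg 99 were called, against 31, 0 and 12 to 107, with 168 by DESeq2 and 169 without a filter. From 0.01 to 0.3 µg/kg 0 were called, against at most 18 by DESeq2 and 31 without a filter. At 30 against 3 µg/kg 149 were called, against 14 with only the 6 mice, 249 with DESeq2, 257 without a filter and 47 (without mouse 67) to 694 (without mouse 65) on leaving out 1 mouse. The trend called 4379, against 195 with index use, 7 with the clock score, 25 in first-use mice and 237 in second-use mice. Any difference called 1596, against 106 with index use, 38 with the clock score, 2533 by DESeq2 and 957 (without mouse 67) to 2978 (without mouse 65) on leaving out 1 mouse. Without the fold limit the calls were 151, 285, 636 and 2976 at 1, 3, 10 and 30 µg/kg.

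The sign turned for *Slc12a2* at 30 µg/kg under library size scaling (-0.093), pan-epithelial scaling (-0.058), no filter (-0.023) and the clock covariate (-0.563), and over leaving out 1 mouse it ran from -0.316 to 0.192. At 30 against 3 µg/kg it turned under library size scaling (-0.035), no filter (-0.009) and the clock covariate (-0.065), and ran from -0.303 to 0.202 over leaving out 1 mouse. Its trend turned with the clock score (-0.01). With index use, *Smoc2* turned at 30 µg/kg (0.294) and in the trend (0.01), and *Lgr5* in the trend (0.001). Within first-use mice the slopes were 0.006 for *Axin2*, 0.003 for *Ascl2*, 0.059 for *Lgr5* and 0.019 each for *Sox9*, *Olfm4* and *Smoc2*. *Ascl2* at 30 µg/kg ran from -0.609 to 0.014 over leaving out 1 mouse. *Lgr5* and *Axin2* were called at 30 µg/kg without any single mouse of the groups compared, with adjusted p of at most 0.0434 and 0.00461. No paired analysis was possible because each mouse has its own number in the labels and no number is shared between groups. Depth limits *Ascl2* most, at 5 to 41 counts per mouse.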
